A study of Mus musculus with 8 samples.

Results

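Small pre-B and immature B cells were examined among CD45.2+ cells sorted from the brain parenchyma of WT C57BL/6J mice and APPNL-G-F mice, which carry a humanized amyloid precursor protein knock-in with the Swedish, Iberian and Arctic mutations. They were defined as barcodes with at least 1 UMI (a counted RNA molecule) of Cd79a, at least 1 of Vpreb3, at least 1 of Rag1 or Sox4, and none of Vpreb1, Igll1, Dntt or Cd3e. This gate held 3352 of 46314 cells kept, or 7.24% (95% exact binomial interval 7.003 to 7.477). It held 27.2% (26.38 to 27.96) of 12340 B-lineage cells, which are cells with Cd79a and without Cd3e. The cells came from 8 droplet libraries of 16-week-old mice, 1 for each combination of the 2 genotypes with 4 treatments. These were water alone (control), 2% dextran sulfate sodium (DSS) in the drinking water for 7 days (acute colitis), 3 cycles of 5 days of 2% DSS and 5 days of water (chronic colitis), and food allergy, for which mice were sensitised to ovalbumin and then given it orally. The mice were perfused with PBS, and an antibody to CD45 had been injected into the blood shortly before, but that label cannot be read from the counts. Cells of several mice were tagged with hashtag antibodies and pooled, with up to 4 hashtags per library. The labels do not tie a hashtag to a mouse, so the main tests use libraries, and fits with hashtag groups as units are given only as alternatives.

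B cells arise in the bone marrow through an ordered series of stages. Pro-B cells join the heavy-chain gene segments, and large pre-B cells pair the new heavy chain with the surrogate light chain encoded by Vpreb1, Vpreb2 and Igll1 and divide. Small pre-B cells then leave the cell cycle, switch off the surrogate light chain, express Rag1 and Rag2 again and join the light-chain segments. Immature B cells carry a complete IgM receptor and acquire MHC class II, CD20 (Ms4a1) and homing receptors as they mature. Vpreb3 is a small partner of the immunoglobulin chains, and Sox4 and Ebf1 are transcription factors of the early B lineage.

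The promoters of the recombination genes Rag1 and Rag2 and of the gate gene Vpreb3 are shown because Vpreb3 and Rag1 belong to the gate and Rag2 encodes the partner of Rag1. Each is the stretch of 250 bases before the RefSeq start site on GRCm38.p6, read 5′ to 3′ on the strand of the gene. The Vpreb3 promoter is chr10:75948050-75948299 on the plus strand, the Rag1 promoter chr2:101649533-101649782 on the minus strand and the Rag2 promoter chr2:101624462-101624711 on the plus strand. Capitals mark the matches to 3 motifs searched on both strands: the E-box CAGGTG, the octamer ATTTGCAT and the FOXO motif GTAAACA.
Vpreb3: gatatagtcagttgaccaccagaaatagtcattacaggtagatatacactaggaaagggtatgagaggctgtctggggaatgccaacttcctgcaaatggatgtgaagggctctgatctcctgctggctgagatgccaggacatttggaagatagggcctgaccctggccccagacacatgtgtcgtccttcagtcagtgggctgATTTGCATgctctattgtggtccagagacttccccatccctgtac
Rag1: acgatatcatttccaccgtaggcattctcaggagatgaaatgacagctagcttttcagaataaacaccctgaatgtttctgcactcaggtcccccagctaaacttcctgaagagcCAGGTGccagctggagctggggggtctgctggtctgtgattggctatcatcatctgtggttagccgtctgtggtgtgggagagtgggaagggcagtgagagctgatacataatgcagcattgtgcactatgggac
Rag2: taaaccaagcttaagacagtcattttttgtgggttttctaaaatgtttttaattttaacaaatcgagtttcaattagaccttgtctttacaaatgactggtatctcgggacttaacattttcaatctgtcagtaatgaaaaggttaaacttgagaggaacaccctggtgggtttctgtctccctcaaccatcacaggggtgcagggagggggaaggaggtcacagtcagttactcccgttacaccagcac
The octamer, a site for POU factors such as Pou2f2, lay 45 bases before the Vpreb3 start, and 1.60% of 32851 promoters of this length held it. The E-box, a site for E proteins such as Tcf3, lay 135 bases before the Rag1 start and was in 17.2% of promoters. The FOXO motif was in 3.17% of promoters and in none of these 3. The motifs do not overlap each other, and a match describes the letters only.

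The libraries held between 26988646 and 56307389 gene UMIs, and between 4479 and 6747 cells each were kept, with a median of 2647 to 3968 UMIs per cell. The members had a median of 2326 UMIs and 1236.5 genes, and 1.22% of their UMIs were mitochondrial. Ebf1, which the gate did not use, was detected in 94.3% of members, against 0.435% of T cells, which should lack it and had a median of 3121 UMIs. Rag2 was detected in 20.5% of members, in 1 of 8737 T cells (0.0114%) and in 0 of 830 mature B cells, for which the upper 95% exact bound is 0.443%. After thinning every cell to 1000 UMIs, these shares were 76.3% and 0.127% for Ebf1 and 7.74% and 0.0115% for Rag2 in members and T cells. The summed level of 6 T-cell markers was 14.1 to 70.4 CPM (UMIs of a gene scaled to a common total of all gene UMIs) in the members of each library, against 3339 to 4682 CPM in T cells. Of 4 microglial markers 3 were detected in the members and Sall1 was at 0, and their sum was 78.1 to 190.5 CPM, against 61.8 to 107 CPM in T cells. Neutrophil markers reached 16.4 to 48038 CPM in the members, and 94 members (2.80%, interval 2.27 to 3.42) with at least 5 UMIs of S100a8, Lyz2, Elane, Mpo and Hbb-bs held 98.6% of these neutrophil UMIs. The 94 barcodes had a median of 10319.5 UMIs against 2295 in the other members, and 34 of them were among the highest 6% of doublet scores. All intervals cover counting error only.

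Because the gate has thresholds of 1 UMI, cells just inside and just outside it were compared as a description. Members had 1588 CPM of Ebf1, 81.4 CPM of Rag2 and 523 CPM of Il7r. The 135 members with a single Vpreb3 UMI had 970, 13.2 and 255 CPM of the same genes, and the 136 cells with no Vpreb3 that met the rest of the gate had 324, 6.45 and 120 CPM. The 1147 members with 1 UMI of Rag1 and Sox4 together had 35.3 CPM of Rag2, against 4.58 CPM in the 4834 cells with neither gene. They had 305 against 54.0 CPM of Il7r and 970 against 1677 CPM of H2-Aa. Their Ms4a1, at 1168 CPM, was nearer to the 1394 CPM of those outside cells than to the 507 CPM of all members. The 170 cells with 1 UMI of the surrogate light chain genes or Dntt had 73.5 CPM of Rag2 and 543 CPM of Il7r, close to the members, but 38.1 CPM of Ms4a1 against 507 CPM. The boundary toward earlier stages therefore cut through cells with like Rag2 and Il7r levels. The boundary toward later stages cut through cells with like Ms4a1 levels.

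The share of small pre-B and immature B cells among the cells kept ranged from 3.01% to 12.2% over the 8 libraries, and its order over the treatments differed between the genotypes. WT mice had 12.2% (826 of 6747 cells, interval 11.5 to 13.05) in the control library and 5.87% (263 of 4479), 8.64% (460 of 5327) and 3.21% (147 of 4584) in the libraries of acute colitis, of chronic colitis and of food allergy. APPNL-G-F mice had 7.09% (475 of 6700) in the control library and 3.01% (189 of 6282), 9.21% (529 of 5742) and 7.17% (463 of 6453) in the same treatments. WT libraries averaged 7.49% ± 3.87 (SD, n = 4), and APPNL-G-F libraries averaged 6.62% ± 2.60 (SD, n = 4). The difference of -0.868 percentage points was smaller than the spread between libraries (2-sided exact permutation test, p = 0.743, adjusted over 2 denominators 0.857, smallest possible p 0.0286). It turned to 0.717 points without the WT control library and to 0.337 points without the APPNL-G-F acute colitis library.

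Each treatment was compared with the control library of the same genotype, with no test since each condition had 1 library. The intervals of the differences combine the exact binomial limits of both shares by the square-and-add rule of Newcombe. In acute colitis the share was lower by 6.37 points in WT (difference -6.37, interval -7.42 to -5.31) and by 4.08 points in APPNL-G-F mice (-4.08, -4.84 to -3.33). In chronic colitis the difference was -3.61 points (-4.70 to -2.50) in WT and 2.12 points (1.15 to 3.11) in APPNL-G-F mice. In food allergy it was -9.04 points (-9.98 to -8.09) in WT and 0.0854 points (-0.805 to 0.977) in APPNL-G-F mice. Single hashtag groups varied more than the libraries did. In the WT control library, hashtag 5 held 736 of the 826 members, where they were 35.7% of 2061 cells, while hashtags 4, 6 and 7 had 6.30%, 0.635% and 1.15%. In the 30 hashtag groups the share ran from 0 to 35.7% with a median of 5.38%.

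**Figure D1:**
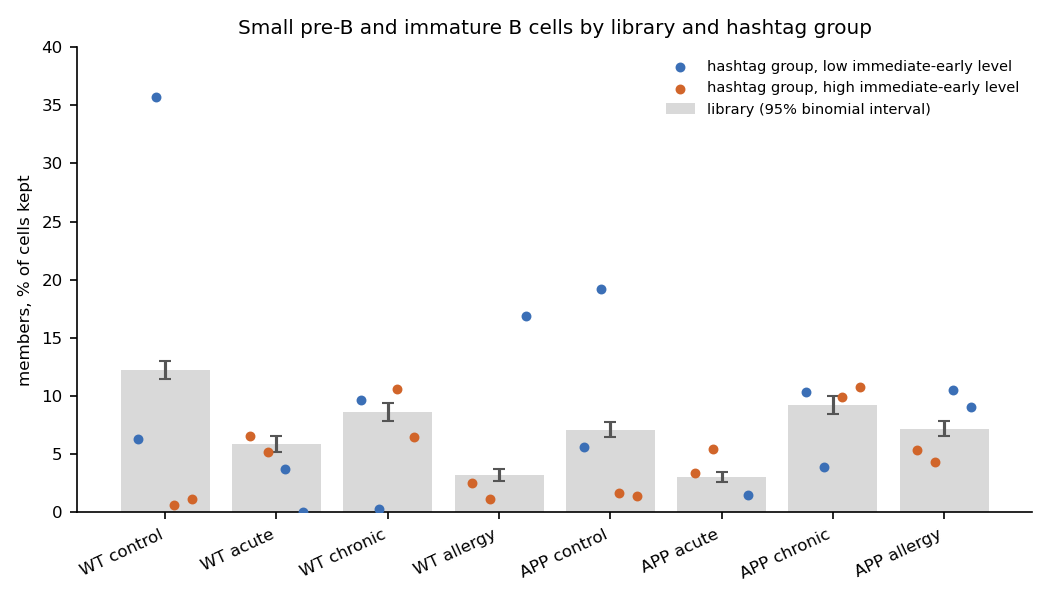
Share of small pre-B and immature B cells among the cells kept, in percent, for the 8 libraries (bars with 95% exact binomial intervals) and their 30 hashtag groups (points, coloured by the immediate-early level of the T cells of the group). The WT control library stands at 12.2%, and its hashtag 5 group at 35.7% is the highest point of all.

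The hashtag groups also fell into 2 sets by the summed level of 10 immediate-early genes in their T cells, with 752.5 to 1857 CPM in 14 groups and 3695 to 7246 CPM in 16 groups. Immediate-early genes such as Fos, Jun and Egr1 respond within minutes to stimulation and to handling. This split was found in the data and is not a label of the study. Members were 11.3% of 16300 cells in the low set and 5.02% of 30014 cells in the high set. Hashtag 5 of the WT control library alone held 736 of the 1846 low-set members. Over the groups the median share was 7.68% (0 to 35.7%) in the low and 4.74% (0.635 to 10.8%) in the high set. The high set held 3.87% and 10.7% of the members in the WT and APPNL-G-F control libraries, but 98.5% and 74.1% in acute colitis, 99.1% and 64.5% in chronic colitis, and 49.0% and 33.5% in food allergy. When high-set groups alone were compared, the share was higher than in control in each treated library, by 5.15, 8.44 and 0.889 points in WT acute colitis, chronic colitis and food allergy and by 3.02, 8.80 and 3.26 points in APPNL-G-F mice. Within the low set the differences were -24.2, -25.7 and -9.74 points in WT and -10.9, -4.78 and -2.92 points in APPNL-G-F mice. The low set held 4 members in WT acute colitis (hashtag 6) and 3 and 1 in WT chronic colitis (hashtags 4 and 5), so these low-set values rest on few cells. The direction of each treatment difference in share therefore depended on which hashtag groups were compared, and the part of the immediate-early set in these differences was not tested.

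Not all members were small or resting. Of the 3352 members, 701 (20.9%, interval 19.5 to 22.3) had at least 5 UMIs of 9 mitotic genes (Mki67, Top2a, Cdk1, Ccnb1, Ccnb2, Cdc20, Plk1, Aurkb and Birc5), 2435 had none, and 52 had between 3 and 7 and thus lay near the threshold, which was chosen after the counts were seen. The cycling members had a median of 5949 UMIs against 2100 in the other members and held 42.2% of all UMIs of the members. The share with at least 5 mitotic UMIs was 61.6% in pro-B/large pre-B cells, which are Cd79a-positive cells with Vpreb1, Igll1 or Dntt, 2.17% in mature B cells and 2.55% in T cells. The word small in the name of the population does not hold for this fraction, and several results below are also given without it, though the comparison with pro-B/large pre-B cells was not run without it. By library the cycling share of the members was 23.0%, 20.5%, 23.9% and 18.4% in WT mice (control, acute and chronic colitis, food allergy, in this order) and 22.5%, 8.99%, 18.9% and 20.7% in APPNL-G-F mice. The APPNL-G-F acute colitis library, with 17 cycling cells of 189, stood below the other 7.

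**Figure D2:**
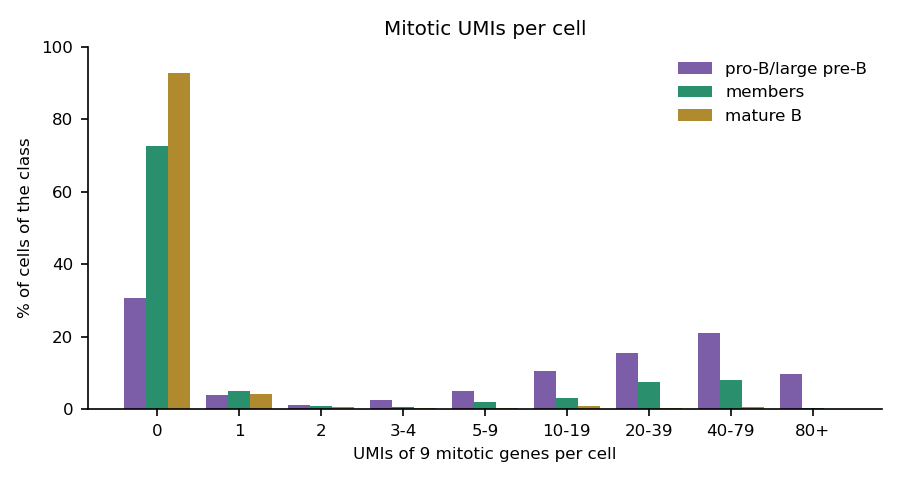
Percent of cells (vertical axis) by the number of UMIs of 9 mitotic genes per cell (horizontal axis) in pro-B/large pre-B cells, members and mature B cells. The members have 72.6% of their cells at 0 and a separate group above 10 UMIs, which holds 640 cells.

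To place the members on the path of B-cell development, they were compared with 830 mature B cells, defined by Cd79a and Ighd and the absence of Vpreb3, Rag1, Sox4, Vpreb1, Igll1, Dntt and Cd3e. UMIs were summed per library and class and tested with the edgeR quasi-likelihood test with the library as a block and Benjamini-Hochberg adjustment. Genes of the gates were not tested, and genes that vary with them were sorted together with them by the gates. Of 6166 genes tested, 43.8% passed an adjusted p of 0.05, with 1350 higher (21.9%) and 1351 lower (21.9%) in the members. Without cycling cells 1901 genes passed in place of 2701. When Vpreb3 was allowed in the mature class, 1793 cells met its definition. With them 3534 of 7776 genes passed, and 2485 of these were among the 2701. The values below are for the 830 cells without Vpreb3. Levels are given as the lowest, median and highest CPM over the 8 libraries.

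Genes of V(D)J recombination were higher in the members, with 8 of the 10 list genes tested called higher and 1 lower, and a median log2 fold change of 1.96 against 0.00 over all genes. Rag2, the partner of Rag1 in the recombinase, was at 23.8, 83.8 and 105 CPM in the members and at 0 in mature B cells of all 8 libraries, which was at least 68.1-fold higher. Lig4, the ligase that seals the broken ends, was at 25.3, 52.8 and 67.2 CPM against 0, 1.1 and 3.39 CPM (log2 fold change 4.67 ± 0.36 SE, adjusted p = 6.08e-08). Neither gene overlapped between the classes, as was the case for 15.2% of all genes tested. Xrcc6, which encodes the Ku70 end-binding protein, was higher by 3.55 on the log2 scale (SE 0.23, adjusted p = 1.28e-08), and Polm, a polymerase used in light-chain joining, by 1.82 (SE 0.16, adjusted p = 2.11e-07). Atm, the kinase that senses the breaks, was the gene called lower (-0.51, adjusted p = 0.039), a call that was lost without the WT control, WT chronic colitis, WT food allergy, APPNL-G-F chronic colitis or APPNL-G-F food allergy library, without cycling cells and with DESeq2.

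Receptors of early B-lineage cells were higher as well, with 6 of 8 called higher, none lower and a median of 2.39. Il7r, the receptor for the growth factor of B-cell precursors, was at 232, 547 and 615 CPM against 0, 30.1 and 47.1 CPM (3.87 ± 0.25 SE, adjusted p = 1.33e-08). Il2ra (CD25), a surface marker of small pre-B cells, was at 43.2, 98.8 and 109 CPM against 0, 3.8 and 23.5 CPM (3.63 ± 0.31 SE, adjusted p = 1.73e-07). Cd93, a marker of immature B cells, was at 62.6, 148 and 192 CPM against 5.22, 9.16 and 30.5 CPM (3.35 ± 0.20 SE, adjusted p = 5.4e-09). The classes did not overlap for any of these 3 genes, and the 2 acute colitis libraries had the lowest Il7r among the members, with 269.8 CPM in WT and 232 CPM in APPNL-G-F mice. By cell, Il7r was detected in 60.0% of members and 3.73% of mature B cells, and Cd93 in 35.0% and 2.65%. Neutrophils, which should lack Il7r, had it in 4.71% of cells at a median of 7370 UMIs.

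Among the transcription factors of the B lineage, 11 of 22 were higher, 6 were lower and the median was 0.24. Myb, a factor of proliferating progenitors, was at 155, 333 and 509 CPM against 0, 7.04 and 27.2 CPM (4.77 ± 0.23 SE, adjusted p = 1.13e-09). Ebf1, which specifies the B lineage, was at 1059, 1671 and 1849 CPM against 377, 571 and 695 CPM (1.19 ± 0.09 SE, adjusted p = 5e-08). The E proteins Tcf3 and Tcf12 were higher by 1.79 and 2.05, Bach2 by 1.68, Irf4, which acts in light-chain rearrangement, by 1.80 and Spib by 1.12. Pou2f2 (-1.05), Bcl11a (-1.30), Bcl6 (-1.12) and Irf8 (-0.47) were lower, and Pax5, the factor that holds B-cell identity, was at 0.09 with an adjusted p of 0.614.

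The receptor list was divided, with 3 of 16 genes higher and 5 lower at a median of -0.13. Cd72 (1.05), Fcrla (1.31) and the adaptor Blnk (0.57) were higher, while the lambda constant genes Iglc2 (-1.63) and Iglc3 (-1.21) and the inhibitory receptor Cd22 (-1.83) were lower. Igkc was at 920.1, 1226 and 2855 CPM in the members and 782, 1254 and 2313 CPM in mature B cells (-0.18, adjusted p = 0.204), and Ighm at 1319, 1545 and 3034 CPM against 875, 1297 and 4501 CPM (0.00, adjusted p = 0.996), so both overlapped. Members thus had levels of the constant genes Ighm and Igkc in the range of mature B cells. Plasma-cell markers (Jchain, Sdc1, Prdm1 and Xbp1) summed to 100 to 4460 CPM in mature B cells and 161 to 3746 CPM in the members of each library. In mature B cells of APPNL-G-F acute colitis, which had the highest Ighm, they came to 3893 CPM. Their part in these ranges was not tested. Kappa variable genes differed, with at least 3 Igkv UMIs in 56.8% of members and 91.2% of mature B cells.

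Genes of MHC class II were lower, with 10 of 10 called and a median of -2.48. Cd74, the invariant chain, was at 2469, 5003 and 9983 CPM in the members and 19336, 22067 and 24571 CPM in mature B cells (-2.35 ± 0.19 SE, adjusted p = 1.18e-07). H2-Aa was lower by 2.96, H2-Eb1 by 3.09 and the peptide-loading gene H2-DMb2 by 3.25 on the log2 scale (log2 fold changes -2.96, -3.09 and -3.25). The transactivator Ciita was also lower (-2.28 ± 0.18 SE). Maturation and homing receptors followed, with 0 of 16 higher, 11 lower and a median of -1.34. The complement receptor Cr2 (-3.77), the follicle-homing receptor Cxcr5 (-3.597), the IgE receptor Fcer2a (-3.38), Gpr183 (-3.19), Itgb7 (-2.52) and Cd55 (-2.27) did not overlap between the classes.

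Ms4a1 (CD20) differed from the rest of this group. It was at 206, 396 and 1249.6 CPM in the members and 715, 852 and 1042 CPM in mature B cells (-1.08 ± 0.28 SE, adjusted p = 0.00516), and in the 2 acute colitis libraries it was higher in the members, with 1249.6 CPM in WT and 1202 CPM in APPNL-G-F mice. The call was lost without the cycling cells (-0.48, adjusted p = 0.136) and within the high immediate-early set (-0.43, adjusted p = 0.124). Ms4a1 was detected in 29.8% of members, 79.6% of mature B cells and 0.252% of T cells. Tnfrsf13c, the receptor for the survival factor BAFF, did not pass the test (-0.23, adjusted p = 0.33).

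Cell-cycle genes were higher in 21 of 22 cases with a median of 2.21, among them Mki67 at 162, 463 and 595 CPM against 0, 50.4 and 141 CPM (2.73 ± 0.36 SE, adjusted p = 1.81e-05). Without cycling cells, 9 of these genes could be tested and 4 were higher with a median of 0.47. The survival genes split in 2 directions. Bcl2l1 (BCL-XL) was at 43.2, 66.3 and 89.8 CPM against 0, 2.61 and 10.7 CPM (3.60 ± 0.33 SE, adjusted p = 4.22e-07), and Bcl2 at 10.0, 17.6 and 40.2 CPM against 47.7, 106 and 163 CPM (-2.58 ± 0.24 SE, adjusted p = 3.97e-07). Both genes oppose apoptosis, and neither overlapped between the classes. The pro-apoptotic Bmf was higher (2.17) and Mcl1 lower (-0.62). Of the 10 immediate-early genes, 8 were lower with a median of -1.36, such as Nr4a1 (-2.71) and Fos (-1.34), while Jun was at 0.19 (adjusted p = 0.536). Within the high set of hashtag groups 3 of 10 were lower, and within the low set 2 of 5 tested were lower and 1 was higher. Of the 4 interferon genes tested, 1 was higher and 2, among them Irf7 (-1.22), were lower.

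Outside the lists, the largest differences were in genes with little or no expression in mature B cells. Gfra1, a GDNF receptor, had 87.5 CPM in the members and a single UMI in mature B cells, a ratio of 220 with a counting interval of 39.3 to 8682. Myl4, a myosin light chain, was at 264, 569.6 and 779 CPM against 0, 5.92 and 17.0 CPM (6.09 ± 0.23 SE, adjusted p = 2.14e-10). Cplx2 (5.80), Uchl1 (5.31), the spindle gene Aspm (5.24), Capsl (4.49) and Akap12 (4.39) were also among the 10 largest. On the other side stood the chemokine receptor Ccr6 (-5.62), Fcrl5 (-4.42), H2-Eb2 (-4.37), the costimulatory ligand Icosl (-4.19), Gimap4 (-4.12), March1 (-3.80), Ptpn22 (-3.78), Ly6a (-3.76) and Apoe (-3.73). Apoe is also one of 7 macrophage and monocyte markers, whose sum was 127 to 1755 CPM in the members and 1687 to 2819 CPM in mature B cells. The part of macrophage RNA in the Apoe difference was not tested.

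**Figure D3:**
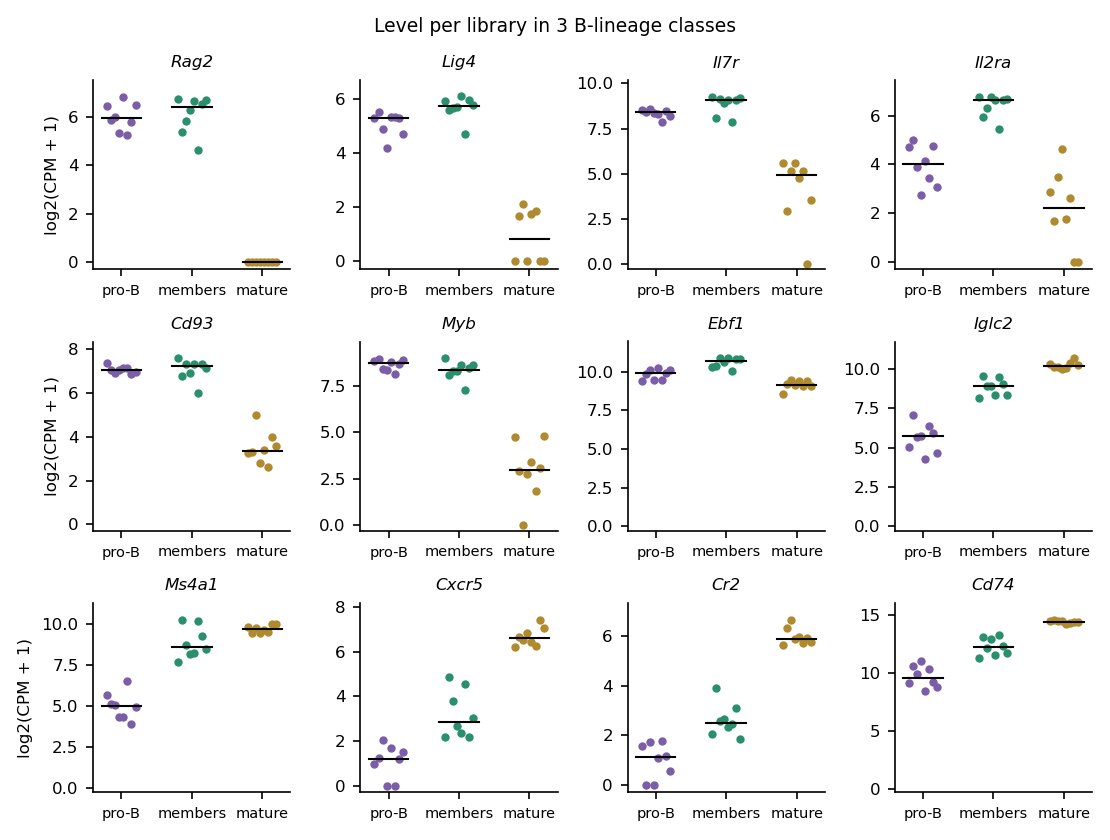
Level of 12 genes as log2(CPM + 1) in each of the 8 libraries (points, in the same library order in every class) with the median (line), for pro-B/large pre-B cells (pro-B), members and mature B cells. Rag2 is at 0 in mature B cells of all libraries, while Cxcr5, Cr2 and Cd74 are lower in the members than in mature B cells.

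The members were also compared with 982 pro-B/large pre-B cells, which precede them. Of 8547 genes tested, 58.5% passed the edgeR test, 2539 higher (29.7%) and 2458 lower (28.8%) in the members. The receptor list was higher in 17 of 18 genes with a median of 1.11 against 0.03 over all genes, and the gene called lower was Vpreb2, the remaining surrogate light chain gene. Vpreb2 had no UMI in the members of any library and 32.7, 79.3 and 117 CPM in pro-B/large pre-B cells, which was at least 322-fold lower in the members. The gates sorted the 2 classes by Vpreb1, Igll1 and Dntt, so genes that vary with these were sorted with them. The Vpreb2 difference is therefore a description of the gates. Iglc2 was at 286, 473 and 758 CPM against 18.7, 51.1 and 132 CPM (3.14 ± 0.12 SE, adjusted p = 4.24e-11), and Iglc3 was higher by 3.37. Igkc was higher by 1.23 (SE 0.23, adjusted p = 0.000233) and Ighm by 0.71, both with overlapping libraries. The signalling genes Cd79b (1.55), Lyn (1.48) and Syk (1.15) did not overlap, as for 15.6% of all genes tested.

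Rag2 did not pass the test between these neighbouring stages, with 23.8, 83.8 and 105 CPM in the members and 36.8, 59.8 and 113 CPM in pro-B/large pre-B cells (0.04 ± 0.13 SE, adjusted p = 0.793). The recombination list held 6 of 13 genes higher and 4 lower with a median of 0.04. Polm was higher by 2.03 (SE 0.13, adjusted p = 3.01e-09) and Lig4 by 0.59, and the DNA-bending gene Hmgb1, which is abundant in dividing cells, was lower (-0.85). Among the early receptors 4 of 10 were higher and 3 lower. Il2ra was higher by 2.32 (SE 0.22), Ly6d by 2.74 (SE 0.09) and Il7r by 0.43 (SE 0.11), and Flt3, a progenitor receptor, was lower (-1.03) together with Cd24a (-0.44).

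Of the transcription factors, 16 of 23 were higher and 4 lower with a median of 0.58. Spib (1.77), Ikzf3 (1.73), Klf2 (2.11) and Ebf1 (0.68) were higher, and Erg (-4.66), Lef1 (-2.41) and Myb (-0.38), factors of earlier stages, were lower. MHC class II was higher in 10 of 10 genes with a median of 1.36, with Cd74 at 2469, 5003 and 9983 CPM against 357, 785 and 2117 CPM (2.51 ± 0.12 SE, adjusted p = 2.76e-10). Maturation receptors were higher in 11 of 12 genes with a median of 1.67, such as Ms4a1 (3.82), Cd40 (3.70), S1pr1 (2.50) and Cd55 (2.45), and 1 was lower. Cell-cycle genes were lower in 20 of 22 cases with a median of -0.82, for example Mcm2 (-1.62), and the cell-cycle inhibitor Cdkn1b was higher (0.77). Among the survival genes 3 of 8 were higher, including Bmf (2.32) and Bcl2l1 (1.04), and 1 was lower. All 10 immediate-early genes were higher with a median of 1.03, and 2 of 5 interferon genes were higher and 1 lower.

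The largest differences from pro-B/large pre-B cells outside the lists were in Il4i1 (4.57), an amino-acid oxidase induced in B cells, Klhl14 (3.80), Tmem163 (3.64), the IgM Fc receptor Fcmr (3.41) and the adhesion gene Cd2 (3.35). Lower genes were Impdh1 (-3.44), an enzyme of guanine nucleotide synthesis, Nrgn (-3.03), the polyamine enzyme Srm (-2.38), the cell-cycle kinase Cdk6 (-2.28), Adgrg1 (-2.26), Bfsp2 (-2.23), Ramp1 (-2.22) and Pck2 (-2.20). Nrgn was at 40.9, 51.9 and 75.8 CPM in the members against 278, 429 and 516 CPM. In each named gene of this paragraph the 8 libraries of one class lay apart from those of the other, as for 15.6% of all genes tested. These genes were chosen for their large fold changes in the same direction in every library, so this lack of overlap adds no support.

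To see how the members vary among themselves, they were ranked by the share of their UMIs that came from the light-chain constant genes Igkc, Iglc1, Iglc2 and Iglc3 and divided into 3 groups of 1117, 1117 and 1118 cells. The cuts lay at 0.100% and 0.279% of UMIs, with 202 and 223 members within 10% of them, so the groups are ranges and not types. The light-chain-high group was compared with the light-chain-low group over 5735 genes, of which 35.5% passed, 1009 higher (17.6%) and 1029 lower (17.9%). The light-chain constant genes were not tested. The cycling share was 34.8% in the light-chain-low, 24.3% in the middle and 3.67% in the light-chain-high group, and 20 of 22 cell-cycle genes were lower in the light-chain-high group with a median of -2.26 against 0.03 over all genes. Without cycling cells 599 genes passed in place of 2038, and of the 9 cell-cycle genes that could then be tested 4 were lower and 1 was higher.

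The receptor list had 12 of 13 genes higher and none lower in the light-chain-high group, with a median of 1.06. Ighm was at 1974, 3250.2 and 6440.1 CPM in the light-chain-high and 602, 920.3 and 1059.7 CPM in the light-chain-low group (1.93 ± 0.19 SE, adjusted p = 5.48e-07), and Cd22 at 61.7, 111 and 178 CPM against 7.04, 12.1 and 19.4 CPM (3.05 ± 0.24 SE, adjusted p = 5.11e-08). Neither overlapped, as for 7.27% of all genes tested. Ighd was higher by 1.11, from 25.1 to 53.8 CPM over all cells. Of the maturation receptors 10 of 12 were higher with a median of 1.63, and Ms4a1 was at 678, 1379 and 2323 CPM against 24.6, 60.6 and 342 CPM (4.30 ± 0.27 SE, adjusted p = 7.46e-09). Fcer2a (5.14), Cd40 (3.02), S1pr1 (1.94) and the early-receptor list member Ly6d (2.28) were also higher.

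Rag2 and Il7r were lower in the light-chain-high group, at 4.2, 27.5 and 81.4 CPM against 42.7, 93.4 and 128 CPM for Rag2 (-1.20 ± 0.23 SE, adjusted p = 0.000521) and at 69.9, 366 and 529.6 CPM against 241, 596 and 727 CPM for Il7r (-0.86 ± 0.20 SE, adjusted p = 0.00342). Both overlapped between the groups. Il2ra did not pass (-0.11, adjusted p = 0.786). The recombination list had 1 of 9 genes higher and 4 lower, with Xrcc6 at -0.76 and Hmgb2 at -2.40. Among the early receptors 1 of 8 was higher and 2 were lower, including Spn (-1.72), and among the transcription factors 10 of 21 were higher and 3 lower. Pou2f2 (2.15), Bcl11a (1.89) and Ikzf3 (1.55) were higher and Myb (-1.07) and Lef1 (-0.77) lower, the last call being lost without the APPNL-G-F chronic colitis library. Of the survival genes, Mcl1 (1.07) and Bmf (1.55) were higher and Bcl2l1 (-0.69) lower. Of 9 immediate-early genes and 3 interferon genes, 1 of each was higher.

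MHC class II had 5 of 10 genes higher and 1 lower in the light-chain-high group, with H2-DMb2 (3.76), H2-Oa (2.08) and Cd74 (1.99) higher and H2-DMb1 (-1.82) lower. The light-chain-low group held 63 of the 94 members with myeloid or erythroid RNA and the light-chain-high group 7 of them, and neutrophil markers came to 16091 and 808 CPM. After these barcodes were left out, all 8 MHC class II genes that could be tested were higher, with a median of 1.58. The genes with the largest falls in the full comparison, Anxa1 (-4.32), Plbd1 (-4.01), Lyz2 (-3.64), Alox5ap (-3.61), Anxa2, Ifitm2 (-3.39), Pglyrp1 (-3.39) and Fcer1g (-3.38), are myeloid genes and were too low to be tested without the 94 barcodes. Rrm2 (-3.45) and Ncapg (-3.43) are genes of DNA synthesis and mitosis. The largest rises outside the lists were in Il4i1 (4.38), Bank1 (3.58), a B-cell scaffold protein, Fcmr (3.52), Derl3 (3.49), which acts in the secretory pathway, Fcrl1 (3.47), the lipid desaturase Scd1 (3.36) and Klhl14 (3.12). Derl3 is induced in plasma cells, and the summed level of 4 plasma-cell markers (Jchain, Sdc1, Prdm1 and Xbp1) was 215 to 8799 CPM in the light-chain-high group and 113 to 175 CPM in the light-chain-low group. Their part in the result was not tested.

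A second division used the gate itself, since 1186 members (35.4%, interval 33.8 to 37.0) had Rag1 and 2166 entered through Sox4 alone. Of the Rag1-positive members, 911 also had Sox4. Of 6532 genes compared between Rag1-positive and Sox4-only members, 11.0% passed, 372 higher (5.7%) and 347 lower (5.31%) in the Rag1-positive members. Without the APPNL-G-F chronic colitis library 425 genes passed in place of 719, and without cycling cells 552. Rag1 and Sox4 were not tested. The median depth was 2068.5 UMIs in Rag1-positive and 2482.5 UMIs in Sox4-only members, and Sox4-only members may include cells whose Rag1 transcripts were missed.

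Recombination genes were higher in 4 of 10 cases and lower in none. Xrcc6 was at 401, 558 and 671 CPM in Rag1-positive and 83.2, 305 and 357 CPM in Sox4-only members (1.03 ± 0.17 SE, adjusted p = 0.00172), without overlap, as for 1.13% of all genes tested. Rag2 was at 71.4, 128 and 146 CPM against 6.79, 75.03 and 88.1 CPM (0.82 ± 0.20 SE, adjusted p = 0.0165) and lost its call without the APPNL-G-F chronic colitis library. Polm was higher by 0.65 and Lig4 by 0.45, and Lig4 lost its call without any of 5 libraries. Early receptors were higher in 6 of 8 cases and lower in 1, with a median of 0.68 against 0.01 over all genes. Il2ra was at 112, 145 and 188 CPM against 28.9, 63.7 and 88.7 CPM (1.15 ± 0.15 SE, adjusted p = 0.000499), Il7r was higher by 0.76, Cd93 by 0.69 and the chemokine receptor Cxcr4 by 0.51. Cd24a was the gene called lower (-0.31). Of the transcription factors 6 of 22 were higher, among them Ebf1 (0.60), Tcf12 (0.74), Bach2 (0.63) and Foxo1 (0.40), which drives Rag transcription, and Bcl11a (-1.27), Pou2f2 (-0.87) and Id3 (-0.75) were lower.

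Some genes of later maturation were higher in Sox4-only members. Ms4a1 was at 76.7, 104 and 269 CPM in Rag1-positive and 266, 541 and 1513 CPM in Sox4-only members (-2.45 ± 0.23 SE, adjusted p = 0.000115). The 2 groups overlapped only between 266 and 269 CPM. Il4i1 (-3.63), Cd83 (-2.47), H2-DMb2 (-2.33), the phosphatase Dusp10 (-2.08), Scd1 (-1.97), Bank1 (-1.61), the phosphatase Ptpn6 (-1.54) and Fcmr (-1.31) were lower in Rag1-positive members. So were Cd40 (-1.24), Tnfrsf13c (-1.16) and Cd22 (-1.21). MHC class II had 3 of 10 genes lower and none higher, with Cd74 at -1.32, and the maturation receptors 3 of 12 lower and 2 higher, the latter being Cd38 (0.61) and S1pr4 (0.39). The receptor list had 3 of 17 genes higher, Syk, Blnk and Fcrla at 0.38, 0.41 and 0.34, and 3 lower.

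Cell-cycle genes were lower in 11 of 22 cases and higher in 1 in the Rag1-positive members, of which 15.9% were cycling against 23.7% of the Sox4-only members. Without cycling cells 1 of 9 was lower and 1 higher. Cdkn1b was higher (0.52) and Mcm2 (-1.02) and Pcna (-1.12) lower. The survival genes Bcl2l1 (0.60) and Bmf (0.63) were higher and Mcl1 (-0.39) lower. Of the immediate-early genes Jun (0.74) and Btg2 (0.69) were higher and Egr1 (-0.94) and Nr4a1 (-1.26) lower, and none of 3 interferon genes passed. The largest rises outside the lists were Cacna1e (1.85), a calcium channel subunit, at 61.0, 88.9 and 122 CPM against 11.9, 25.3 and 38.6 CPM, and Reln (1.61), the secreted protein reelin, at 29.7, 50.5 and 73.2 CPM against 3.26, 13.96 and 28.7 CPM. Nav2 (1.27), Ttc7b (1.18), the cytokine signalling inhibitor Socs1 (1.15), Selenop (1.11), Stk3 (1.08) and the cochaperone Dnajc7 (1.03) followed.

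Both divisions were combined into 3 subsets of the members, given as pooled levels without a test. The 701 cycling members had 93.3 CPM of Rag2, 540.2 CPM of Il7r, 47.1 CPM of Ms4a1 and 1037 CPM of Cd74. The 998 Rag1-positive members outside the cycle had 119 CPM of Rag2, 770.3 CPM of Il7r, 155 CPM of Ms4a1 and 3276 CPM of Cd74. The 1653 Sox4-only members outside the cycle had 48.7 CPM of Rag2, 376 CPM of Il7r, 1199.5 CPM of Ms4a1 and 9708 CPM of Cd74. Iglc2 followed the same order, with 64.1, 545 and 806 CPM. The last subset thus had the highest Ms4a1 and Cd74 of the 3, yet its Rag2 was above the 0 of the mature B cells.

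**Figure D4:**
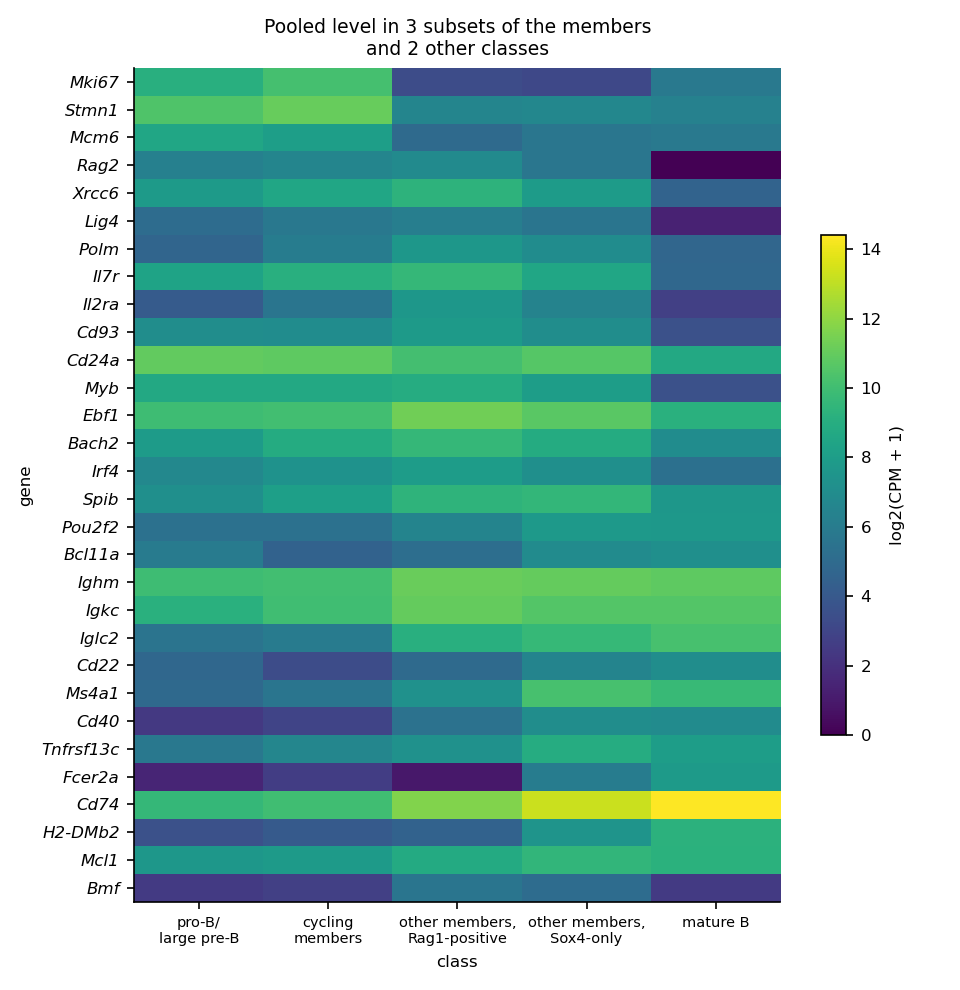
Pooled level of 30 genes as log2(CPM + 1) (colour) in pro-B/large pre-B cells, the 3 subsets of the members and mature B cells. Rag2, Xrcc6 and Il2ra are brightest in the Rag1-positive members outside the cycle, and Ms4a1, Cd74 and H2-DMb2 brighten toward the Sox4-only members outside the cycle.

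The genotypes were compared in an additive fit of genotype and treatment over the members of the 8 libraries. Of 8820 genes tested, 0 passed the edgeR test (0.0%), 269 had an unadjusted p below 0.05 and DESeq2 called 2. The 3 genes of smallest p are given as values. Gm21887 was at 123, 76.7, 87.2 and 127 CPM in WT mice (control, acute and chronic colitis, food allergy, in this order) and at 45.5, 11.9, 39.96 and 23.9 CPM in APPNL-G-F mice (-1.70 ± 0.24 SE, adjusted p = 0.538). Ms4a4b was at 8.01, 4.41, 6.62 and 7.08 CPM in WT and 44.1, 13.4, 15.6 and 47.8 CPM in APPNL-G-F mice (2.11 ± 0.30 SE, adjusted p = 0.538). Dynlt1f was at 31.7, 30.9, 12.1 and 26.5 CPM in WT and 4.75, 5.96, 6.37 and 2.58 CPM in APPNL-G-F mice (-2.19 ± 0.37 SE, adjusted p = 0.783). The genotypes did not overlap for any of the 3, which were singled out by their p, and the share of all genes without overlap was not counted. Dynlt1f belongs to a family of near-identical copies whose reads may be divided among them. The medians of the gene lists lay between -0.27 (immediate-early) and 0.10 (maturation receptors), against 0.00 over all genes.

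Acute colitis was the treatment with genes past the threshold. Of 8820 genes, 72 passed (0.816%), 67 higher (0.76%) and 5 lower (0.0567%) than in the 2 control libraries. H2-DMb2 was at 31.3 and 40.1 CPM in WT and APPNL-G-F control and at 165 and 179 CPM in acute colitis (2.46 ± 0.15 SE, adjusted p = 0.00226). Ms4a1 was at 206 and 309 CPM in control and 1249.6 and 1202 CPM in acute colitis (2.46 ± 0.20 SE, adjusted p = 0.00862). Il7r was at 615 and 549 CPM in control and 269.8 and 232 CPM in acute colitis (-1.03 ± 0.17 SE, adjusted p = 0.0372). Control and acute colitis did not overlap for these genes, which were named because they passed. With 2 libraries against 2, a lack of overlap carries little weight, and its share over all genes was not counted. Higher in both genotypes were also Scd1 (1.96), the cyclin Ccnd2 (2.72), Il4i1 (3.29), Fcer2a (3.48), Sp140 (2.12), Nedd4 (1.55), Cd83 (3.0), an activation marker, H2-Oa (2.05) and H2-Ob (0.95), Cd40 (2.01), Tnfrsf13c (1.35), Cd22 (1.70), Pou2f2 (1.14), Bcl11a (1.37), Iglc2 (1.43), the interferon-induced Ifi27l2a (1.0) and the immediate-early gene Egr1 (2.27).

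By list, 4 of 14 maturation receptors and 3 of 10 MHC class II genes were higher in acute colitis, with medians of 0.89 and 1.23 against 0.02 over all genes, and 1 of 10 early receptors was lower. The immediate-early and interferon lists had larger medians, at 1.45 and 1.47, with 1 of 10 and 1 of 5 genes called higher. Cell-cycle genes had a median of -0.64, with 1 of 22 called higher and 0 lower. Of the recombination genes 0 of 12 passed at a median of -0.45. The Rag1-positive share was 40.7% and 39.2% of members in the WT and APPNL-G-F control libraries, 19.8% and 19.0% in acute colitis, 35.0% and 35.3% in chronic colitis and 31.3% and 39.3% in food allergy. The members in the 2 acute colitis libraries thus had a lower Rag1-positive share than those in the other 6, which is a description, as Rag1 belongs to the gate. In these libraries 98.5% and 74.1% of members were in the high immediate-early set, against 3.87% and 10.7% in control. Within the high set the differences were 0.998 for Ms4a1, 0.06 for H2-DMb2, 1.14 for Il4i1, -0.20 for Cd83, -0.68 for Egr1 and -0.66 for Il7r, none of which passed, and 3 genes passed, all lower. The high set held 32 and 51 members in the WT and APPNL-G-F control libraries, against 259 and 140 in acute colitis. The high-set control levels thus rest on few cells. With hashtag groups as units and the set as a term, 0 genes passed, with 292 at an unadjusted p below 0.05. The count was 0 without the WT control library, 21 without either APPNL-G-F library of the contrast and 290 without the WT acute colitis library, and DESeq2 called 113. The part of the immediate-early set in the acute colitis result was not tested beyond these values. Markers of other cell types also differed between control and acute colitis in the members, but they varied over the other treatments as well. Neutrophil markers summed to 16.4 and 7377 CPM in WT and APPNL-G-F control and to 4901 and 48038 CPM in acute colitis, and macrophage and monocyte markers to 127 and 439 CPM against 511 and 1661 CPM. Plasma-cell markers were at 161 and 1168 CPM in control and at 3746 and 2038 CPM in acute colitis. In chronic colitis and food allergy, neutrophil markers summed to 18898 and 11874.5 CPM in WT and to 2198 and 7417 CPM in APPNL-G-F mice. Macrophage and monocyte markers came to 624 and 1755 CPM in WT and to 295 and 821 CPM in APPNL-G-F mice. Plasma-cell markers came to 1661 and 1084 CPM in WT and to 717 and 840 CPM in APPNL-G-F mice. Without the 94 barcodes with myeloid or erythroid RNA 258 genes passed, and the part of the other markers was not tested.

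**Figure D5:**
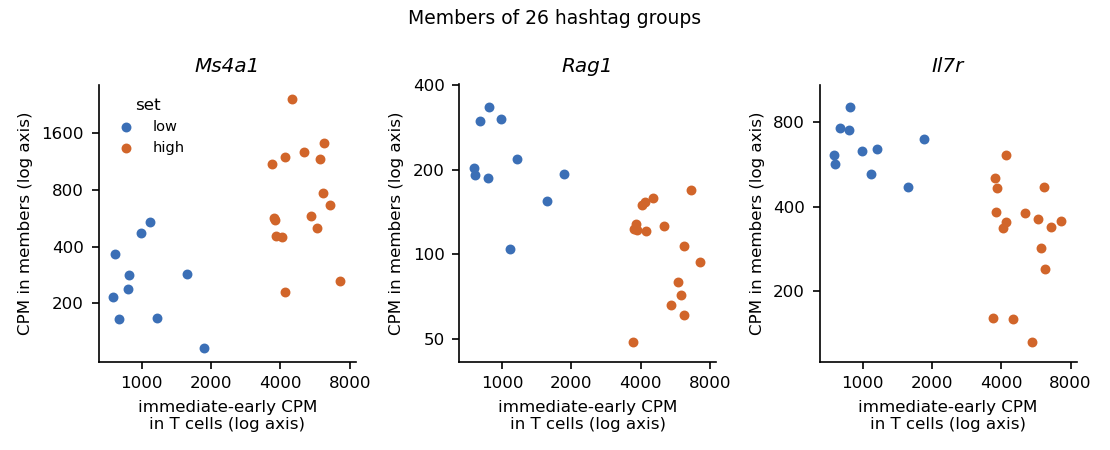
Level of Ms4a1, Rag1 and Il7r in the members of 26 hashtag groups with at least 10 members (CPM, log axis) against the summed level of 10 immediate-early genes in the T cells of the group (CPM, log axis). The low set lies at 752.5 to 1857 CPM and the high set at 3695 to 7246 CPM, and members of the high set reach higher Ms4a1 and lower Rag1 and Il7r, with overlap.

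Over the 26 hashtag groups with at least 10 members, Ms4a1 ran from 115 to 539 CPM (median 259) in the low set and from 229 to 2426 CPM (median 624) in the high set. Rag1 ran from 105 to 335 CPM (median 198) in the low and from 48.8 to 169 CPM (median 122) in the high set, and Il7r from 469 to 908 CPM (median 635) and from 132 to 613 CPM (median 355). The sets overlapped for all 3 genes. The highest Ms4a1, 2426 CPM, was in hashtag 4 of APPNL-G-F acute colitis with 44 members, while hashtag 7 of the same library, in the low set, had 539 CPM over 49 members.

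Chronic colitis and food allergy each gave 0 calls (0.0%) of 8820 genes with edgeR, with 427 and 345 genes at an unadjusted p below 0.05 and 5 and 4 calls with DESeq2. In chronic colitis the smallest p were for H2-DMb2, at 31.3 and 40.1 CPM in WT and APPNL-G-F control and 85.5 and 103 CPM in chronic colitis (1.52 ± 0.15 SE, adjusted p = 0.0805), Trib1 (1.57, adjusted p = 0.183) and Fcer2a (2.39, adjusted p = 0.283). In food allergy they were for Ccl6, at 6.81 and 6.11 CPM in control and 74.3 and 65.9 CPM in food allergy (3.52 ± 0.52 SE, adjusted p = 0.774), Trib1 (1.37) and the macrophage gene C1qc (7.03 ± 1.13 SE), which had 0.401 and 0 CPM in control and 79.6 and 12.3 CPM in food allergy. Ccl6 and C1qc are myeloid genes. List medians were largest for the immediate-early genes, at 0.80 in chronic colitis and 1.27 in food allergy, with no gene of the list called. Both comparisons share the control libraries with acute colitis. They also share its fit, which recovered 11.1% of 2-fold changes in simulated counts, so 0 calls do not show that no gene changed.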

How the data were processed

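Droplet 5′ single-cell RNA-seq of sorted brain CD45.2+ cells was analysed from the gene-by-barcode UMI count matrices as deposited (8 unfiltered libraries, 32285 genes, mm10). Per the submitters' processing notes the authors used Cell Ranger 6.1.2, whereas the matrix headers name version 4. The counts were not normalized. Barcodes with at least 500 gene UMIs and 200 genes, at most 5% mitochondrial UMIs, and a leading hashtag of at least 50 UMIs and 3 times the next were kept.

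UMIs were summed per library and class and tested with the edgeR 4.0.16 quasi-likelihood test in R 4.3.3 (TMM scaling, low-count filter by filterByExpr, Benjamini-Hochberg adjusted p below 0.05). Classes were compared with the library as a block, and genotypes (4 against 4 libraries) and treatments (2 against 2) in an additive fit. DESeq2 1.42.0 was an alternative. Cells were handled with Python 3.11.15, scanpy 1.11.5 and scipy 1.17.1. With 1 library per condition, p-values cover only these libraries and not the spread between replicates of a condition. In the additive fit the residual is the interaction of genotype with treatment. In the class fits it is the variation of the class difference over libraries. Although the study gives sample numbers for the control libraries and the treated APPNL-G-F libraries, the labels do not tie cells to mice. Shares of cells have exact binomial 95% intervals, and intervals and floors (3 counts) cover counting error only.

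Members, gene lists, markers and alternatives were chosen with earlier results of these data known. Named genes were list members and the 10 largest rises and 10 largest falls among called genes with at least 50 CPM in the higher class and the same direction in every library, without gate, immunoglobulin variable, mitochondrial, ribosomal and predicted genes. For genotype and treatments they were the 10 called genes of smallest p, or the 3 of smallest p where none was called. List members that moved with acute colitis were named as well. Genes named outside these rules were chosen after their values were seen. A few genes that the rules name are not reported here. The immediate-early sets and the mitotic threshold were also set after the data were seen.

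T cells (at least 2 UMIs of Cd3e, no Cd79a) and neutrophils (at least 20 UMIs of S100a8, no Cd79a) served as cells that should lack B-lineage genes. Scrublet, run on 51120 barcodes, marked 8 by its own threshold and so did not separate doublets. The highest 6% of its scores held 118 of the members and were left out as an alternative. Any pair of the 8 libraries shared 0 to 2 member barcodes and 30 to 68 barcodes of all cells kept. The class, genotype and acute colitis fits were tried on simulated counts, and chronic colitis and food allergy used the fit of acute colitis. The class fits recovered 93.5% to 96.9% of 2-fold changes. The genotype fit recovered 59.8% of 2-fold and 99.0% of 4-fold changes, and the acute colitis fit 11.1% and 87.8%. A count of 0 calls for genotype or a treatment therefore does not show that no gene changed.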

Additional observations from a re-analysis of the deposited data

Results flagged for a closer look

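Over 31 sets of 4 to 10 samples, the highest or lowest value was compared with its nearest neighbour, and chance alone sets apart about 1 in 20 such sets. The share of cycling members in the APPNL-G-F acute colitis library, 8.99%, stood below those of the other 7 libraries. Among hashtag groups, hashtag 5 of the WT control library stood apart with a share of members of 35.7%, and hashtag 5 of the APPNL-G-F chronic colitis library with 3.88%. In the members of the APPNL-G-F acute colitis library, the summed level of neutrophil markers was 48038 CPM and that of erythroid markers 1968 CPM, both above those of the other libraries. Fibroblast markers reached 99.6 CPM in the members of the WT acute colitis library.

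The difference in the share of members from control had opposite signs in the 2 genotypes in 2 treatments. It differed from control by -3.61 points in WT and 2.12 points in APPNL-G-F mice in chronic colitis, and by -9.04 and 0.0854 points in food allergy, where the interval of the latter, -0.805 to 0.977, includes 0. Within the high immediate-early groups both genotypes were above control (8.44 and 8.80 points in chronic colitis, 0.889 and 3.26 in food allergy), and within the low groups both were below it (-25.7 and -4.78, and -9.74 and -2.92). These differences between the genotypes were not tested, since each condition has 1 library.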

How the results depend on the processing

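No paired analysis was possible because the labels carry no replicate numbers that would pair libraries, beyond the library block in the class comparisons, where both classes come from the same library, and the matching by treatment in the genotype fit. Where no cause is named, the cause was not tested. Depth limits low genes, and the 2 against 2 treatment contrasts rest on few libraries.

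Against mature B cells, 2701 genes passed, 1216 with hashtag groups as units, 1085 in the high and 975 in the low immediate-early groups, and 2293 to 2877 with 1 library left out. With Vpreb3 allowed in the mature class 3534 passed. Against pro-B/large pre-B cells, 4997 passed, 3216 with hashtag groups and 4477 to 4988 with 1 library left out. Between light-chain groups, 2038 passed, 1118 with hashtag groups, 992 in the high and 963 in the low groups, 599 without cycling cells and 1714 to 2161 with 1 library left out. Between Rag1-positive and Sox4-only members, 719 passed, 262 in the high groups and 425 to 789 with 1 library left out. Hashtag groups left fewer genes to test. With no low-count filter, 57.4% of calls against mature B cells were higher in place of 50.0%, and 36.5% in place of 51.7% for Rag1-positive members. The median of all genes was then 0.12 in place of 0.00 (mature), 0.12 in place of 0.03 (pro-B) and -0.10 in place of 0.03 (light chain).

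For genotype, 0 genes passed, 18 without the filter, 2 with DESeq2, 7 with hashtag groups, 9 with the immediate-early set as a term, 1 without the barcodes with myeloid or erythroid RNA, and 0 to 1 with 1 library left out. For acute colitis, 72 passed, 361 without the filter (70.9% higher in place of 93.1%), 113 with DESeq2 (86.7%), 4 with hashtag groups, 0 with the set as a term, 3 in the high groups, 304 without cycling cells (56.6%), 258 without the mixed barcodes (77.5%) and 0 to 290 with 1 library left out. Egr1 turned to -0.20 with the set as a term and to -0.68 in the high groups, where Cd83 (-0.20), H2-Oa (-0.18) and H2-Ob (-0.017) also turned. For chronic colitis, 0 passed, 33 without the filter, 5 with DESeq2, 9 with the set as a term, 19 in the high groups, 17 without the mixed barcodes and 0 to 4 with 1 library left out. For food allergy, 0 passed, 16 without the filter, 4 with DESeq2, 1 with at least 2 Vpreb3 UMIs and 0 to 4 with 1 library left out.

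The genotype difference in share of -0.868 points was 0.849 in the high and -3.94 in the low groups, and -2.30 to 0.717 with 1 library left out. The differences from control in WT acute colitis, chronic colitis and food allergy were 5.15, 8.44 and 0.889 points in the high groups, -24.2, -25.7 and -9.74 in the low groups, and -23.3, -10.9 and -19.2 as shares of B-lineage cells. In APPNL-G-F mice they were 3.02, 8.80 and 3.26, then -10.9, -4.78 and -2.92, and then -14.8, 5.69 and 6.22. As a mean over hashtag groups, WT food allergy was at -4.11. Of 4158 values of named genes under alternatives, 3873 kept their direction and side of the threshold, 243 lost and 37 gained their call, and 5 changed sign.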

Other observations

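The members were diverse in their heavy-chain variable genes. At least 1 UMI of an Ighv gene was found in 96.3% of members, against 8.84% of T cells and 14.3% of neutrophils. Of the 2856 members with at least 3 such UMIs, 2438 (85.4%) drew at least 80% of them from a single gene, and 94 genes took this place. Ighv1-26 was the most frequent with 115 cells (4.72%, interval 3.91 to 5.64). In hashtag 5 of the WT control library, which held most members of that library, 81 genes led and the most frequent, Ighv9-3, led in 5.89% of the cells with a leading gene. Similar copies of Ighv genes may share reads, so single genes are uncertain.

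Light-chain variable genes were found in more cells outside the cycle. At least 3 Igkv UMIs were found in 24.3% of cycling members, 49.7% of other Rag1-positive members and 74.9% of other Sox4-only members, against 91.2% of mature B cells, 26.3% of pro-B/large pre-B cells and 2.42% of T cells. Depths differ between these classes, with medians of 5949, 1931, 2212, 2250, 7410.5 and 3121 UMIs. At least 3 Iglv UMIs were found in 1.43%, 20.1% and 12.6% of the 3 subsets. Kappa made up 89.1% of the light-chain constant UMIs in cycling members (77.7 to 98.2% by library), 58.2% in other Rag1-positive members (27.5 to 82.5%), 44.8% in other Sox4-only members (34.0 to 57.5%) and 38.6% in mature B cells (27.5 to 51.0%). By variable genes, 91.2% of mature B cells had at least 3 Igkv UMIs and 11.3% had at least 3 Iglv UMIs. The share of constant-gene UMIs therefore does not give the share of cells that use kappa. These values are descriptions without a test.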
